A study of Mus musculus with 18 samples.

Results

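KPC pancreas labelled as lacking ASC was compared with KPC pancreas in 12 of 18 mice, as 5 mice labelled KPC ASC KO against 7 labelled KPC, across every gene that passed a filter on low counts (6920 of 25651 genes in the table). Members were taken by the genotype in each label. Pancreas was snap-frozen at 20 weeks of age from mice of a mixed 129Sv and C57BL/6 background, and polyadenylated RNA was counted with molecular identifiers, which mark each captured molecule. The 6 other mice were wild type (WT), and their levels are given beside those of the KPC and KPC ASC KO mice as a reference. KPC commonly denotes a mouse model of pancreatic cancer in which Cre acts in the pancreatic epithelium and which carries a mutant Trp53 allele. The labels spell out neither the alleles nor the Cre driver, nor do they say whether ASC was deleted in every cell or in the pancreas alone. Both groups share the KPC label and were split by the KO label. Mouse numbers ran from 40 to 210 in KPC and from 318 to 388 in KPC ASC KO, and the labels give no litter or batch. Library totals and Y-linked counts also differed, as given below. Anything else that differed between these mice cannot be told apart from the KO label.

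ASC, encoded by Pycard, is the adaptor through which inflammasome sensors such as NLRP3 and AIM2 gather caspase 1, which then matures interleukin 1 beta and interleukin 18. In the pancreas most RNA comes from acinar cells, which fill zymogen granules with digestive enzymes, and acinar cells exposed to inflammation are known to lose this programme and take on duct-like features. The PTF1 complex, made of PTF1A, an E protein and RBPJL, drives the enzyme genes through an E-box and a neighbouring RBPJ box in their promoters.

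The 5 promoters below are shown because they belong to the acinar enzyme genes with the largest changes among those whose promoter holds both boxes. Each line gives the 250 bases before the start site, from RefSeq on build GRCm38.p6, read 5′ to 3′ on the gene's strand. Capitals mark the E-box letters CACCTG and the RBPJ box letters TGGGAA, each on either strand (CAGGTG and TTCCCA on the other). Cela3a, a pancreatic elastase, is at chr4:137409792-137410041 on the minus strand, and Ctrl, a chymotrypsin-like protease, at chr8:105933863-105934112 on the minus strand. Cela2a, another elastase, is at chr4:141826006-141826255 on the minus strand, Cel, the bile salt-stimulated lipase, at chr2:28563404-28563653 on the minus strand, and Klk1, tissue kallikrein, at chr7:44225110-44225359 on the plus strand.
Cela3a: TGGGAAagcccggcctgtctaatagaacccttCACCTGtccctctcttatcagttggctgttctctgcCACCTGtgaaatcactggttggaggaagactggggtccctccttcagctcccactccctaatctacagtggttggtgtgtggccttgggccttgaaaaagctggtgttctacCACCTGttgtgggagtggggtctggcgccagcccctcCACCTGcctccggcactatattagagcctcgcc
Ctrl: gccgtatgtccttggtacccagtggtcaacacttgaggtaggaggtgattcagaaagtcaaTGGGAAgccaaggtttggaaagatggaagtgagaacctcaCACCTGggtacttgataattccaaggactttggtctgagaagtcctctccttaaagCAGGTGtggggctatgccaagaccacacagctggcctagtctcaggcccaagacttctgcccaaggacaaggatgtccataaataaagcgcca
Cela2a: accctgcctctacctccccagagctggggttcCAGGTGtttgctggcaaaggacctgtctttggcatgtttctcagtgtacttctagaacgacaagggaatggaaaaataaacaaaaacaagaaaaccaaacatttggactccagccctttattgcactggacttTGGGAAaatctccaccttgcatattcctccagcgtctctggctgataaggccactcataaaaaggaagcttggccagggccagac
Cel: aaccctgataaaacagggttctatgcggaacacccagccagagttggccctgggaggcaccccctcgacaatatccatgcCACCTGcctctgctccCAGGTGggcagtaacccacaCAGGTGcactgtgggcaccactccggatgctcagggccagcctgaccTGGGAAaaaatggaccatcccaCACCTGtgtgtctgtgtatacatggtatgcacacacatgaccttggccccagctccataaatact
Klk1: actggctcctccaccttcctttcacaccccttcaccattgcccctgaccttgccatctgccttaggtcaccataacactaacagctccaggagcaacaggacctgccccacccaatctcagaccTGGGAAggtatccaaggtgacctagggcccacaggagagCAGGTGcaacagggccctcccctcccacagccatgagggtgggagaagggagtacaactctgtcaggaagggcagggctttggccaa
Both boxes were found in 1045 of the 27025 promoters of this length (3.87%), against 7 of the 26 tested acinar enzyme genes with a promoter entry (26.9%) and 5 of 17 acinar transcription factor, granule and receptor genes (29.4%). The closest E-box and RBPJ box starts were 32, 40, 133, 22 and 39 bases apart in the 5 promoters, in the order printed. Spacing was not part of the match, so these shares do not count PTF1 sites. A match is a description of these letters only.

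The libraries within each group differed from one another. Library totals ran from 452472 to 1626977 counts in KPC and from 374432 to 647947 in KPC ASC KO, with means of 881174 ± 395011 (SD, n = 7) and 496001 ± 107475 (SD, n = 5), which differed in an exact two-sided permutation test (p = 0.048, smallest possible 0.00126, adjusted p = 0.048 over 4 such tests). The exact permutation test gave p = 0.0628 to 0.109 without any one of KPC mice 43, 89, 145 and 154 or of the 5 KPC ASC KO mice. Acinar enzyme genes took 32.5% to 56.4% of the counts in KPC ASC KO, 4.42% to 40.2% in KPC and 48.3% to 58.8% in WT. KPC ASC KO mice 318, 335 and 388 had 53.1% to 56.4%, within the WT range, and their summed macrophage markers (1170 to 1242 CPM, counts scaled by the library total) and matrix genes (1273 to 1362 CPM) also lay within the WT ranges of 953 to 1628 and 1049 to 1828 CPM. KPC ASC KO mice 377 and 384 lay within the KPC ranges for both (macrophage 5644 and 6003 CPM, matrix 6415 and 7167 CPM). Among the KPC mice, 40, 89, 145 and 154 held 1610.1 to 3734 CPM of B cell genes, and the other 3 held 263 to 933 CPM. The labels give no sex. Summed Y-linked counts, not scaled for depth, ran from 4 to 131 in KPC libraries and from 2 to 7 in KPC ASC KO libraries. Counts of the X-linked RNA Xist ran from 3 to 434 and from 5 to 70. KPC ASC KO mice 335 and 388 had 5 and 8 Xist counts with 7 Y-linked counts each. Mice 318, 377 and 384 had 39, 56 and 70 Xist counts with 6, 5 and 2 Y-linked counts. No sex was assigned from these low counts, and the part of sex in the results was not tested.

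**Figure D1:**
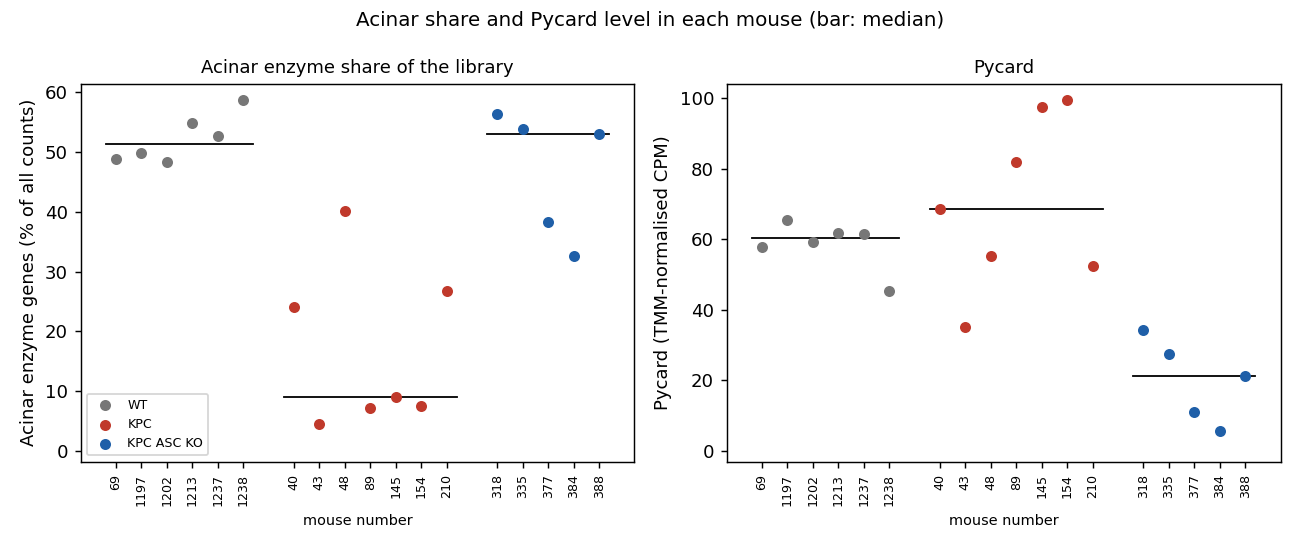
Acinar enzyme genes as a percentage of all counts (left) and the Pycard level in TMM-normalised CPM (right), one point per mouse on the x axis, with a bar at each group's median. All 5 KPC ASC KO mice are below the lowest KPC mouse for Pycard, while for the acinar share KPC mouse 48 (40.2%) lies above KPC ASC KO mice 377 and 384.

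Pycard itself (ENSMUSG00000030793, chr7:127989708-127993867, GRCm38) was lower in the KPC ASC KO mice, although it was not absent. Levels below are CPM after TMM scaling, which corrects for a few genes taking a large share of a library. KPC mice ranged from 35.1 to 99.5 CPM with a median of 68.5, and KPC ASC KO mice 318, 335, 377, 384 and 388 had 34.2, 27.3, 11.1, 5.56 and 21.1 CPM, from 12, 7, 6, 3 and 5 counts. The groups did not overlap. The log2 fold change was -1.94 (SE 0.35, adjusted p = 0.0043 in edgeR's quasi-likelihood test with Benjamini-Hochberg adjustment), and an exact two-sided permutation test of the CPM gave p = 0.00379 (adjusted 0.0101). Pycard passed in each of the 12 edgeR fits that left out 1 mouse (adjusted p of 0.0202 at most) but not without KPC mice 40, 89, 145 and 154 (-1.34, adjusted p = 0.127) or in a fit with each mouse's enzyme level as covariate (-2.03, adjusted p = 1.00). The WT mean was 58.6 ± 6.95 CPM (SD, n = 6). Priming at the poly(A) tail places most counts near the end of a transcript, and the labels do not say which exons were deleted, so a remaining count does not measure remaining functional transcript. Trp53, the tumour suppressor that the KPC model carries in mutant form, ran from 16.9 to 36.7 CPM in KPC and from 8.44 to 33.4 CPM in KPC ASC KO, with a log2 fold change of -0.80 that did not pass (SE 0.36, edgeR adjusted p = 0.149).

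Across all genes, 652 of 6920 (9.42%) passed an adjusted p of 0.05: 466 were higher in KPC ASC KO (6.73%) and 186 lower (2.69%). A change of more than 2-fold was seen for 306 of the higher and 139 of the lower genes, and the median log2 fold change of all genes was -0.05. In TMM-normalised CPM, every KPC ASC KO mouse was above every KPC mouse in 86 genes (1.24%) and below in 73 (1.05%). Of the called genes, 69 higher and 40 lower were among these.

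The counts depended on the mice that entered and on the scaling. When each mouse's acinar enzyme level was a covariate, no gene passed in edgeR (223 at an unadjusted p under 0.05). That level was the mean of the acinar enzyme genes, which were themselves among the genes tested. Every KPC ASC KO mouse had a higher enzyme share than every KPC mouse but 48. The covariate fit therefore cannot tell the enzyme level and the KO label apart. Without KPC mice 40, 89, 145 and 154 a single gene passed (Gdf10, a BMP-family ligand, at -1.88, adjusted p = 0.0245, named after its value was seen). Without KPC ASC KO mice 318, 335 and 388 only Pycard passed (-3.02, adjusted p = 0.019), and without mice 377 and 384 there were 1098 calls. Leaving out a single mouse gave 157 to 205 calls where it was KPC ASC KO mouse 318, 335 or 388, 325 to 335 where it was KPC mouse 89, 145 or 154, 1068 where it was KPC mouse 48, and 458 to 800 otherwise. Of the 95 called genes named here other than Pycard, 30 passed in all 12 of these fits, among them Cela1, Tmed11, Egf, Tdh, Rplp1, Xbp1, Igf1, Irak1, Hcls1 and Vcam1. Scaled to total counts in place of TMM, 5193 genes passed, 142 higher and 5051 lower, and the median of all genes moved to -1.14. The sets of several mice left out were chosen after the data were seen, by their acinar enzyme, macrophage, matrix or B cell levels. Values without them describe the mice that remain and test nothing about those levels.

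**Figure D2:**
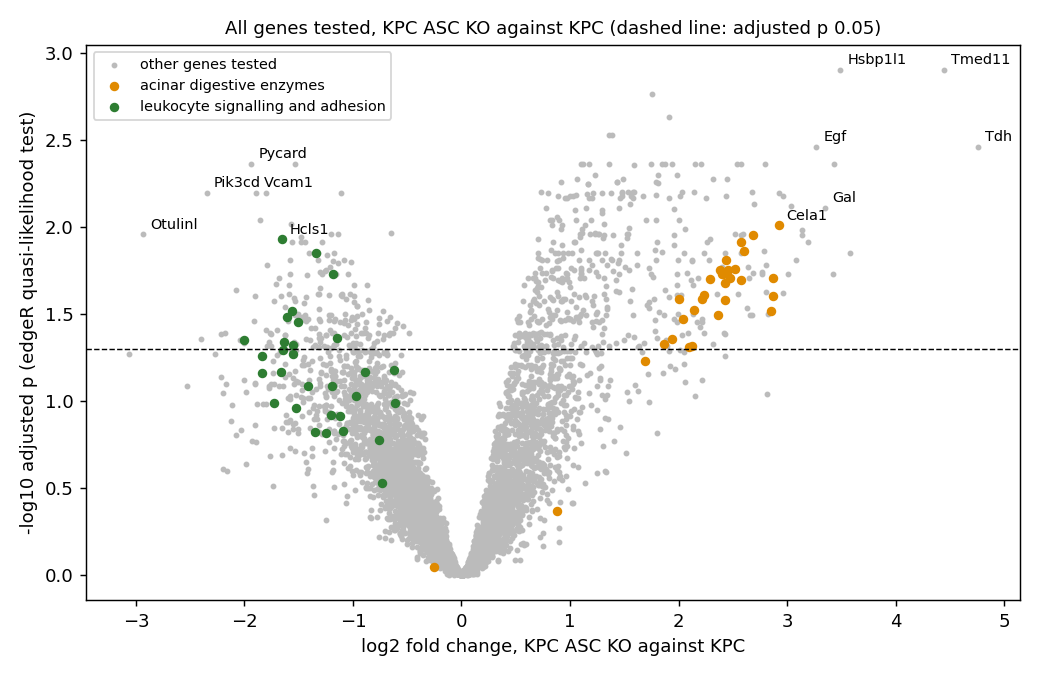
Log2 fold change of KPC ASC KO against KPC (x) against -log10 of the adjusted p from edgeR (y) for the 6920 genes tested, with the acinar enzyme and leukocyte signalling lists in colour. The 28 enzyme genes called lie between 1.87 and 2.93 on the right, and the leukocyte genes lie on the left, 10 of them above the dashed line.

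The acinar enzyme genes were higher almost as a block. Of 31 tested, 28 rose and none fell, against 6.73% of all genes higher, and their median log2 fold change was 2.40. Cela1, an elastase, ran from 764 to 15652 CPM in KPC with a median of 1907, and stood at 58647, 49079, 12797, 9797 and 47887 CPM in KPC ASC KO mice 318, 335, 377, 384 and 388. Mice 318, 335 and 388 were above every KPC mouse, whereas 377 and 384 were below KPC mouse 48 (2.93, SE 0.65, edgeR adjusted p = 0.00971). Of the genes whose promoters are printed above, Cela3a rose by 2.87, Ctrl by 2.69, Cela2a by 2.58, Cel by 2.29 and Klk1 by 2.24 on the log2 scale, with edgeR adjusted p between 0.0111 and 0.0244. The most abundant genes that rose were the chymotrypsinogen Ctrb1 (1.94, SE 0.60), the amylases Amy2a5 (2.43, SE 0.64) and Amy2a4 (2.38, SE 0.60) and the trypsinogens Prss2 (2.04, SE 0.60) and Try4 (2.14, SE 0.61). Ctrb1 had a mean of 68132 ± 25293 CPM (SD, n = 5) in KPC ASC KO and 17819 ± 17688 CPM (SD, n = 7) in KPC. The amylase copies and the trypsinogens are near-identical paralogs, so the split of counts among them is uncertain. Ctrc (1.69), Prss3 (0.88) and Prss1 (-0.26) did not pass. In a fit of the 12 KPC and KPC ASC KO mice alone none of the 31 passed at a median of 2.41, and none passed without KPC mice 40, 89, 145 and 154 (median 1.69) or without KPC ASC KO mice 318, 335 and 388 (median 1.29). Leaving out a single mouse left 3 enzyme genes called for KPC ASC KO mouse 318 or 335, 6 for 388, 16 for KPC mouse 89 or 145 and 17 for 154. The fit with no low-count filter called 5 of 32; each of these medians was 2.21 or higher. With the B cell level of each mouse as a covariate 1 of 31 was called (median 1.85). In bulk tissue a larger number of acinar cells and more enzyme RNA per cell cannot be told apart.

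Acinar genes outside the enzymes rose too. Tmed11, a p24-family receptor for secretory cargo, was at 1.24 to 24.0 CPM in KPC with a median of 3.002, and at 139.6, 121, 20.4, 35.2 and 114 CPM in KPC ASC KO mice 318, 335, 377, 384 and 388. Only KPC mouse 48 reached the lowest KPC ASC KO mouse (4.44, SE 0.58, edgeR adjusted p = 0.00124). Egf, the ligand of the EGF receptor, was at 0.622 to 12.01 CPM in KPC with a median of 3.73 and at 39.9, 58.6, 22.3, 11.1 and 46.4 CPM in the KPC ASC KO mice in the same order, with KPC mouse 210 above KPC ASC KO mouse 384 (3.27, SE 0.54, edgeR adjusted p = 0.00344). Egf rests on 2 to 8 counts per KPC library and 6 to 15 per KPC ASC KO library. In all, 17 of the 22 tested acinar transcription factor, granule and receptor genes rose and none fell (median 2.20). Among all genes 6.73% were higher. Of the transcription factors, Bhlha15, which matures zymogen granules (2.18, SE 0.53), Rbpjl, the acinar subunit of PTF1 (2.24, SE 0.57), and Xbp1, which expands the secretory pathway (0.92, SE 0.18), rose. Ptf1a (1.73, SE 0.65, edgeR adjusted p = 0.101) and Nr5a2 (0.96, SE 0.43, edgeR adjusted p = 0.156) did not pass. Xbp1 was the one transcription factor of these with no overlap, from 198 to 456 CPM in KPC and from 461 to 715 CPM in KPC ASC KO. On the total-count scale its fold change was -0.11, which is above the shifted median, and the groups overlapped. The count was 5 of 23 without KPC ASC KO mouse 318, 335 or 388, and 10 of 22 without KPC mouse 89, 145 or 154. It was 7 of 24 with no low-count filter, 4 of 22 with the B cell covariate described below, 3 of 21 in the 12-mouse fit, and 0 without KPC mice 40, 89, 145 and 154 or without KPC ASC KO mice 318, 335 and 388.

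**Figure D3:**
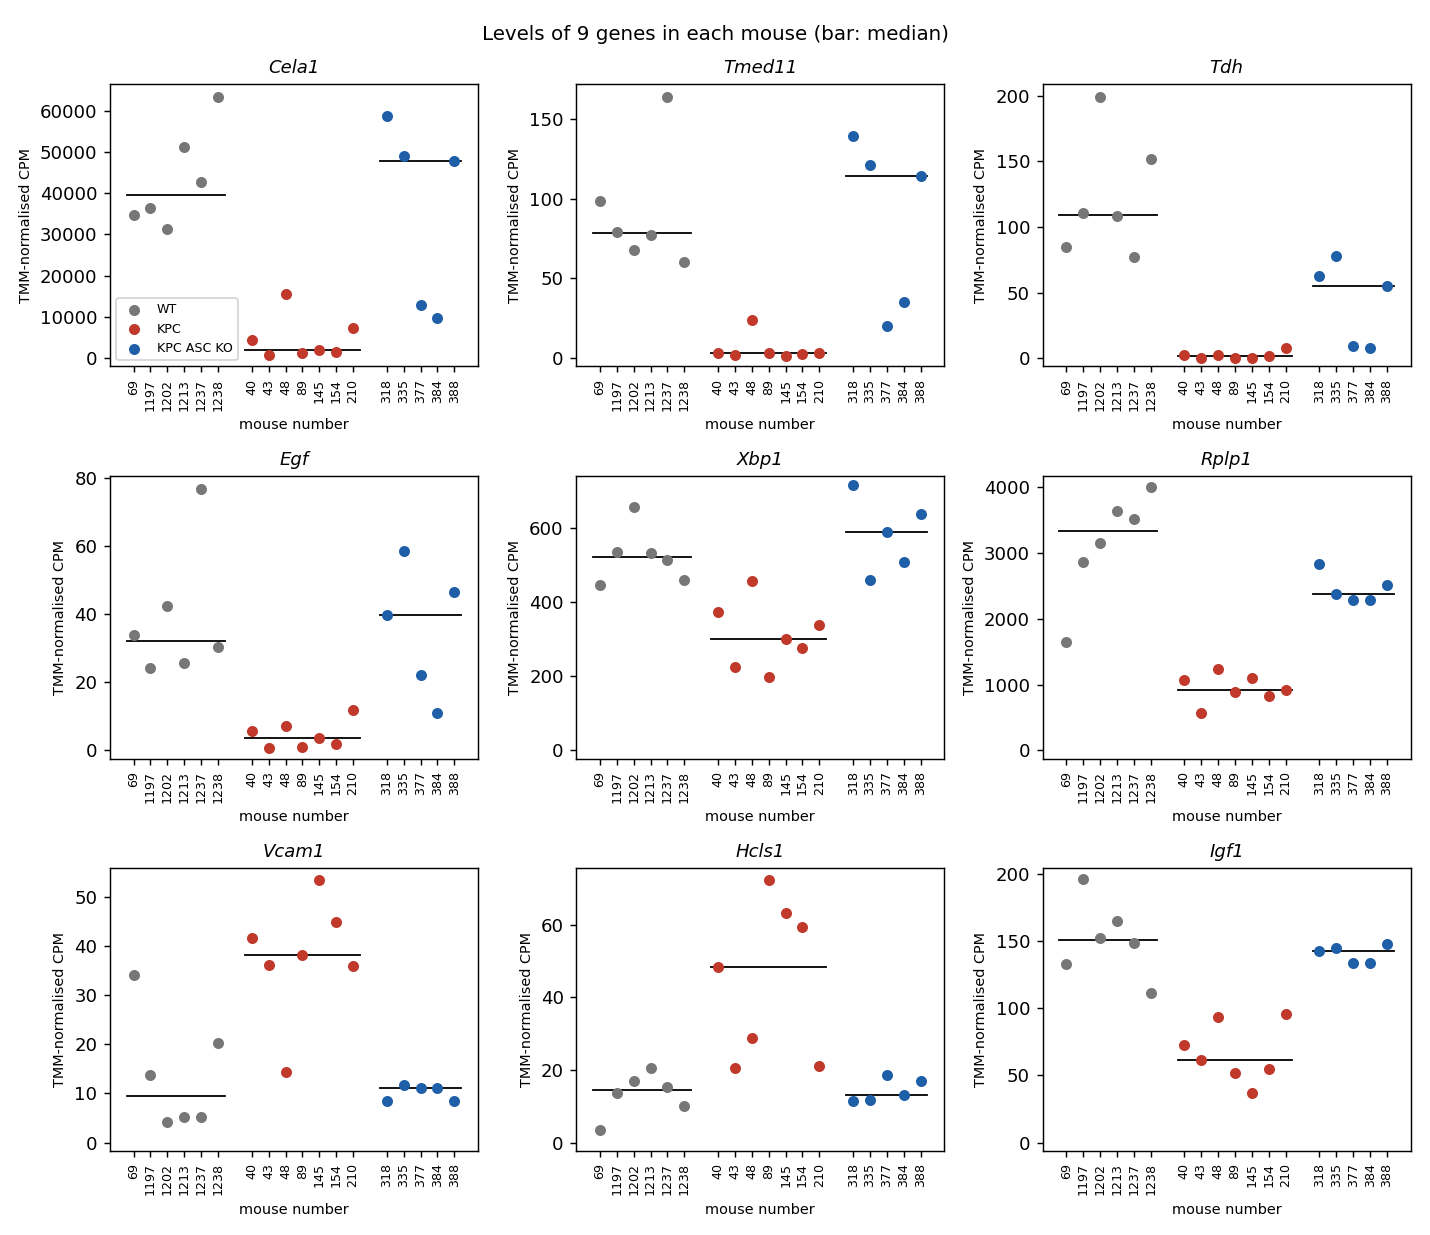
TMM-normalised CPM of 9 genes in each mouse (x axis: mouse number; colours: WT, KPC, KPC ASC KO; bar: group median). KPC ASC KO mice 318, 335 and 388 stand at WT levels for Cela1 and Tmed11 with 377 and 384 lower, while for Rplp1, Xbp1, Vcam1 and Igf1 all 5 lie on one side of every KPC mouse.

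The gene with the largest rise was Tdh, the mitochondrial threonine dehydrogenase that breaks threonine down to glycine. KPC mice had 0 to 7.50 CPM with a median of 1.80, from 0 to 5 counts per library. KPC ASC KO mice 318, 335, 377, 384 and 388 had 62.7, 78.1, 9.28, 7.42 and 54.9 CPM, from 22, 20, 5, 4 and 13 counts. Only KPC mouse 210 reached mouse 384 (4.75, SE 0.74, edgeR adjusted p = 0.00344). Tdh was one of 10 of 24 amino acid synthesis and aminoacyl-tRNA genes that rose (median 0.78, none lower), against 6.73% of all genes higher. On the total-count scale the median of this list was -0.31, with 8 genes higher and 6 lower. In other fits 1 gene was called without KPC ASC KO mouse 318, 2 without 335 or 388, 4 or 5 without KPC mouse 89, 145 or 154, and 0 of 23 in the 12-mouse fit. Cbs, cystathionine beta-synthase (2.76, SE 0.65), Asns, asparagine synthetase (2.02, SE 0.51), Phgdh, the first enzyme of serine synthesis (1.87, SE 0.47), and Wars, the tryptophanyl-tRNA synthetase (1.10, SE 0.27), were among them. Other genes in the upper tail were Hsbp1l1 (3.49), Smim38 (3.43), Atp2c2, a Golgi calcium and manganese pump (3.19), Cdcp3 (3.14), Snord118, the U8 small nucleolar RNA (3.03), and Gabra4, a GABA receptor subunit (2.97), all past the threshold in edgeR. Several rest on few counts per library, such as Hsbp1l1 with 1 to 10 in KPC and 8 to 21 in KPC ASC KO. In the same order Cdcp3 had 0 to 10 and 6 to 13, Gabra4 0 to 11 and 5 to 15, and Atp2c2 2 to 12 and 4 to 38. Smim38 and Snord118 did not overlap between the groups: Snord118 was at 11.8 to 189.6 CPM in KPC and at 587, 844, 276, 330.1 and 638 CPM in the KPC ASC KO mice. Casp9, the initiator caspase of the mitochondrial death pathway, appeared to rise by 3.005 (SE 0.72), but its end overlaps Cela2a and Ctrc by 1015 bases on the opposite strand, and Cela2a rose by 2.58 and held more counts. The sources used here do not say whether counting used the strand, so these counts cannot be assigned to Casp9, nor those of Eef1akmt3 (3.14, overlapping Mettl1), Galnt6os (3.42, named as an opposite-strand RNA of Galnt6), the amylase pseudogene Amy2-ps1 (3.58) or the hepcidin copy Hamp2 (3.08) to those genes with certainty.

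Genes of the secretory route and of protein synthesis rose in part, where 6.73% of all genes were higher. Of 30 tested translocon and glycosylation genes 8 rose (median 0.41), led by Srp9 (1.18, SE 0.21) of the signal recognition particle, its receptor Srpr (1.16, SE 0.23) and Sec62 of the translocon (1.06, SE 0.22). Of 26 chaperone and unfolded protein response genes 7 rose (median 0.41), among them Eif2ak3, which encodes the stress kinase PERK (1.48, SE 0.30), Sel1l, a part of the ER degradation ligase (1.59, SE 0.46), and Selenos (1.05, SE 0.23), whereas the chaperones Hspa5 (0.27), Calr (0.05) and Hsp90b1 (-0.18) did not pass. Cytosolic ribosomal proteins had 8 of 48 higher (median 0.33) and nuclear respiratory chain subunits 14 of 55 (median 0.36), including Uqcrq (1.12, SE 0.21), Uqcr11 (0.89, SE 0.18) and Ndufs6 (1.03, SE 0.21), and 6 of 13 mitochondrially encoded genes rose (median 0.66). None of these lists had a member lower. Rplp1, a ribosomal stalk protein, stood out with no overlap: KPC mice had 565 to 1243 CPM with a median of 921, and KPC ASC KO mice 318, 335, 377, 384 and 388 had 2841, 2383, 2282, 2283 and 2521 CPM (1.38, SE 0.23, edgeR adjusted p = 0.00297). Unlike the enzymes, it was as high in mice 377 and 384 as in mouse 335. Scaled to total counts, the groups overlapped for Rplp1. On the total-count scale the 5 lists other than the amino acid genes had medians of -0.46 to -0.79, above the shifted median of all genes of -1.14, and more of their members were called lower than higher. Sec62, Selenos, Uqcrq, Uqcr11 and Ndufs6 turned to between -0.18 and -0.011 there. Without KPC ASC KO mouse 318, 335 or 388 the calls were 1 or 2 for ribosomal proteins, 4 to 7 for respiratory chain subunits, 1 or 2 for mitochondrially encoded genes, 3 or 4 for chaperones and 4 or 5 for translocon genes. Without KPC mouse 48 they were 15 (and 1 lower), 23, 8, 13 and 14. Without KPC mouse 89, 145 or 154 they were 2 to 4, 7 to 9, 4 or 5, 4 and 6. Each of the 6 lists had no call without KPC mice 40, 89, 145 and 154 or without KPC ASC KO mice 318, 335 and 388.

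A few genes that rose belong to none of those groups. Igf1, insulin-like growth factor 1, was at 37.3 to 96.0 CPM in KPC with a median of 61.6 and at 142, 145, 134, 134 and 148 CPM in KPC ASC KO mice 318, 335, 377, 384 and 388, without overlap (1.10, SE 0.20, edgeR adjusted p = 0.00433). Irak1, the kinase that carries interleukin 1 and Toll-like receptor signals, was at 61.2 to 118 CPM and at 188, 203, 124, 139 and 236 CPM, also without overlap (0.95, SE 0.20, edgeR adjusted p = 0.00683). Lpl, lipoprotein lipase, was at 27.3 to 65.9 CPM and at 68.4 to 86.0 CPM (0.97, SE 0.25, edgeR adjusted p = 0.0196). The 5 KPC ASC KO mice lay close together for Igf1 and Lpl and further apart for Irak1. On the total-count scale Irak1 and Lpl turned to -0.17 and -0.15 and Igf1 stayed above 0, none of them past the threshold. The groups overlapped on that scale for each of these genes. Gal, the neuropeptide galanin (3.35, SE 0.64), was the one islet or neuroendocrine gene of 14 that rose (median 1.07). That share, 7.14%, was near the 6.73% of all genes higher. Insulin 2 (Ins2) had a log2 fold change of 2.05 (SE 0.64, edgeR adjusted p = 0.0525) and somatostatin (Sst) of 1.60 (SE 0.56, edgeR adjusted p = 0.0809). Sst did not overlap after TMM scaling, at 14.9 to 76.8 CPM in KPC and 102 to 152 CPM in KPC ASC KO, but did when scaled to total counts. Among 19 duct genes tested only Cldn18, a gastric-type claudin, rose (1.78, SE 0.41). Among 15 gastric metaplasia genes only Tff2, a trefoil factor that WT pancreas also held at a mean of 7547 CPM, rose (1.80, SE 0.42). These shares, 5.26% and 6.67%, were near the 6.73% of all genes higher. Neither list had a member lower on the TMM scale, but on the total-count scale 8 duct genes were lower and none higher (median -0.83). There 4 gastric metaplasia genes were lower and 1 higher (median -0.45). Without KPC ASC KO mouse 335 neither list had a call, and without 388 the duct list had none. Without KPC mouse 43 the duct list had 3 genes higher, and without KPC mouse 48 the gastric list had 3 and without 210 it had 2. Gstp1 (1.52, SE 0.33) and Mt1, a metallothionein (1.79, SE 0.51), rose of 21 oxidative stress and metallothionein genes (9.52%, median 0.19). That list had 1 higher and 15 lower on the total-count scale (median -0.97). It had 1 higher without any one of KPC mice 40, 43, 89, 145 and 154 or KPC ASC KO mice 318, 335 and 388.

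**Figure D4:**
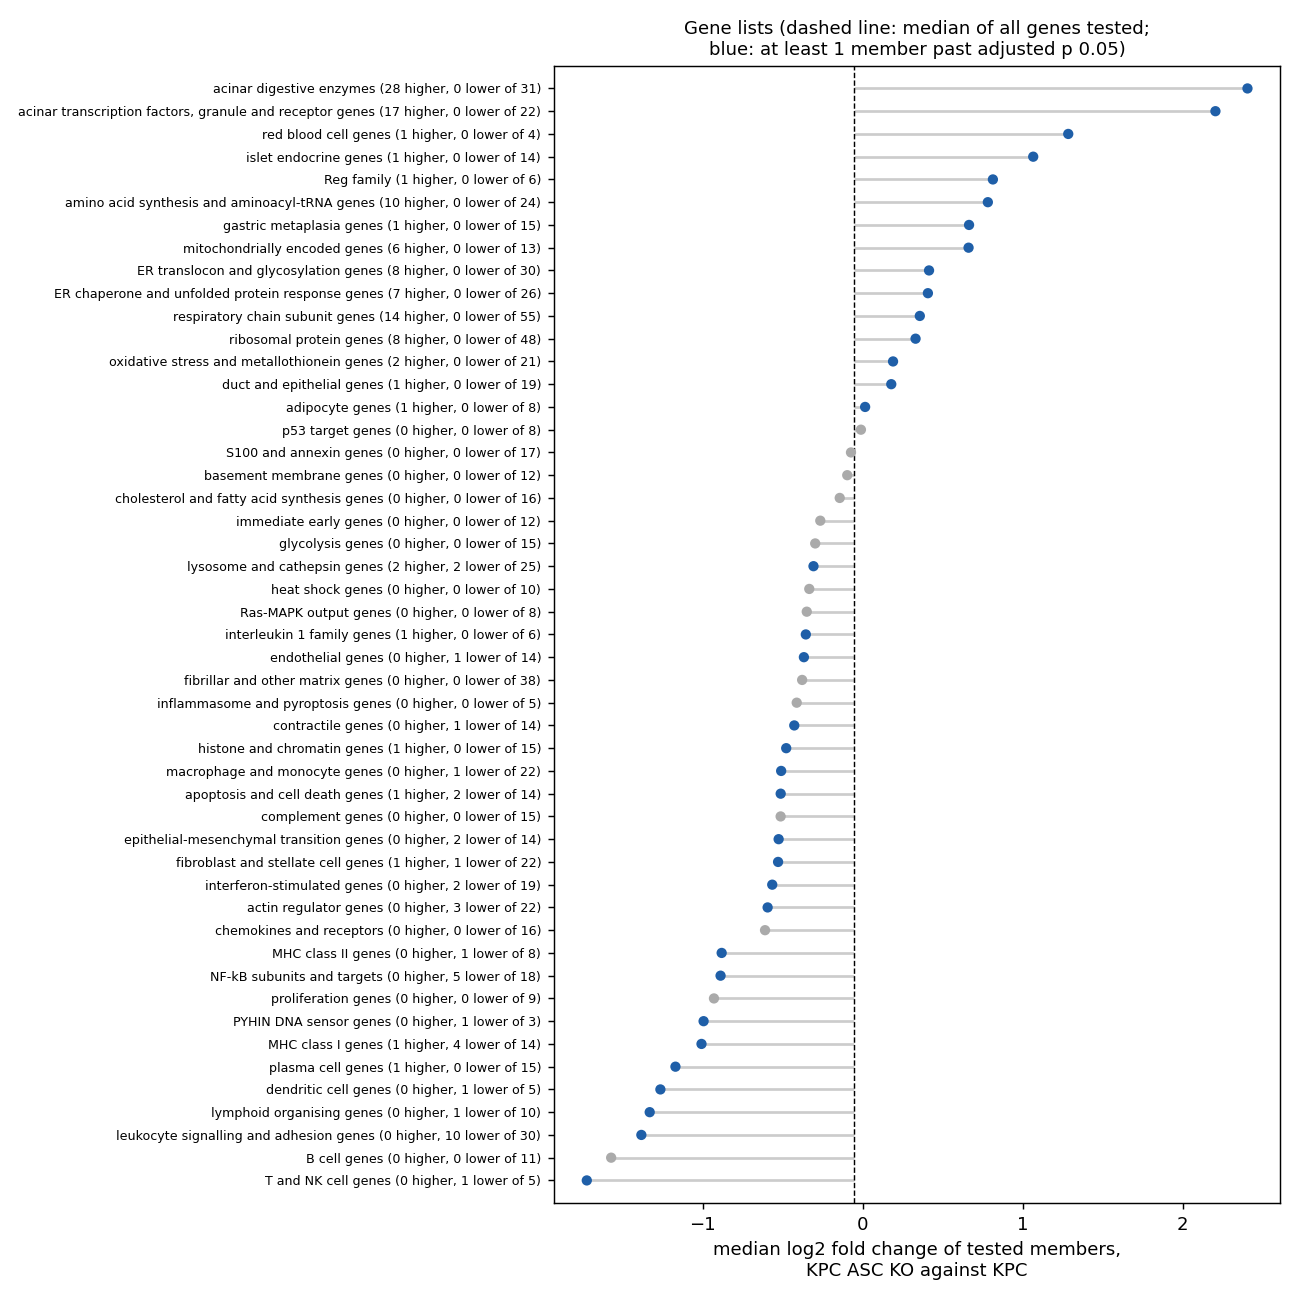
Median log2 fold change of the tested members of each gene list with at least 3 (x), with the counts called higher and lower of those tested in each row label; the dashed line is the median of all genes, -0.05. The acinar lists stand at the top at 2.40 and 2.20, and the T cell, B cell and leukocyte signalling lists at the bottom.

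Among the genes that fell, leukocyte signalling genes gave more calls than any other list. Of 30 tested leukocyte signalling and adhesion genes 10 fell and none rose, against 2.69% of all genes lower, and the median was -1.38. Hcls1, a cortactin-like protein of blood cells, was at 20.5 to 72.3 CPM in KPC with a median of 48.3 and at 11.4, 11.7, 18.6, 12.98 and 16.9 CPM in KPC ASC KO mice 318, 335, 377, 384 and 388, without overlap (-1.65, SE 0.38, edgeR adjusted p = 0.0117). The integrin chain Itgb2 (-1.51, SE 0.44), the pan-leukocyte phosphatase Ptprc (-1.64, SE 0.50), L-plastin (Lcp1, -1.34, SE 0.32) and the lysosomal receptor regulator Laptm5 (-1.18, SE 0.30) were others. Ptprc turned to 0.079 without KPC mice 40, 89, 145 and 154. Outside the list, Pik3cd, the leukocyte form of the PI3-kinase catalytic subunit, was at 10.9 to 54.7 CPM in KPC with a median of 47.2 and at 5.70, 3.91, 9.28, 12.98 and 0 CPM in the KPC ASC KO mice in the same order, with KPC mouse 43 alone inside their range (-2.35, SE 0.48, edgeR adjusted p = 0.00632). Otulinl (-2.94, SE 0.67), the GTPase Gimap5 (-2.08, SE 0.56), the integrin chain Itgb7 (-2.01, SE 0.61), the cytotoxic granule gene Nkg7 (-2.001, SE 0.62), the exchange factor Dock10 (-1.91, SE 0.56) and the interleukin 10 receptor Il10ra (-1.80, SE 0.54) also fell, as did Dennd5b (-2.18), Txndc16 (-2.04) and the BMP antagonist Grem1 (-2.21), with 0 to 5 counts per KPC ASC KO library for the last 3 and 0 to 3 for Otulinl. The leukocyte signalling list had no call and a median of -0.07 without KPC mice 40, 89, 145 and 154, and 1 call with limma-voom or in the 12-mouse fit. Without 1 mouse it had 1 or 2 calls for KPC ASC KO mouse 318, 335 or 388, 6 for 377, 5 for KPC mouse 40, 3 for 89, 145 or 154, and 24 of 29 for 43 and 22 of 30 for 48.

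The summed levels of leukocyte genes differed among the mice of each group, and their part in these results was not tested beyond the covariate fit below. Summed leukocyte signalling genes took 1041 to 7156 CPM in KPC, with 4055 CPM or more in mice 40, 89, 145 and 154 and 2096 CPM or less in the others, and 428 to 1774 CPM in KPC ASC KO. B cell genes had 0 of 11 called at a median of -1.57, the nearest being the adaptor Blnk (-1.57, SE 0.50, edgeR adjusted p = 0.0507). None of 15 tested immunoglobulin and T cell receptor segments was called (median -1.51). Macrophage genes had 1 of 22 lower (4.55%, against 2.69% of all genes), the monocyte antigen Ly6c2 (-2.40, SE 0.71). All 22 had a log2 fold change below 0, with a median of -0.51. Lysozyme (Lyz2) ran from 1037 to 1917 CPM in KPC and stood at 684, 484, 1635, 1584 and 599.5 CPM in KPC ASC KO mice 318, 335, 377, 384 and 388 (-0.58, SE 0.26, edgeR adjusted p = 0.146). Mice 377 and 384 were thus inside the KPC range and the other 3 below it. Without mice 377 and 384, 15 of 23 macrophage genes were lower (median -1.42). Without KPC ASC KO mice 318, 335 and 388 none of 26 was called (median 0.20), and without KPC mice 40, 89, 145 and 154 none of 22 (median -0.42). With the B cell level of each mouse as a covariate 176 genes passed, 140 higher and 36 lower, against 652 without it, and none of the 30 leukocyte signalling genes did (median -0.46).

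**Figure D5:**
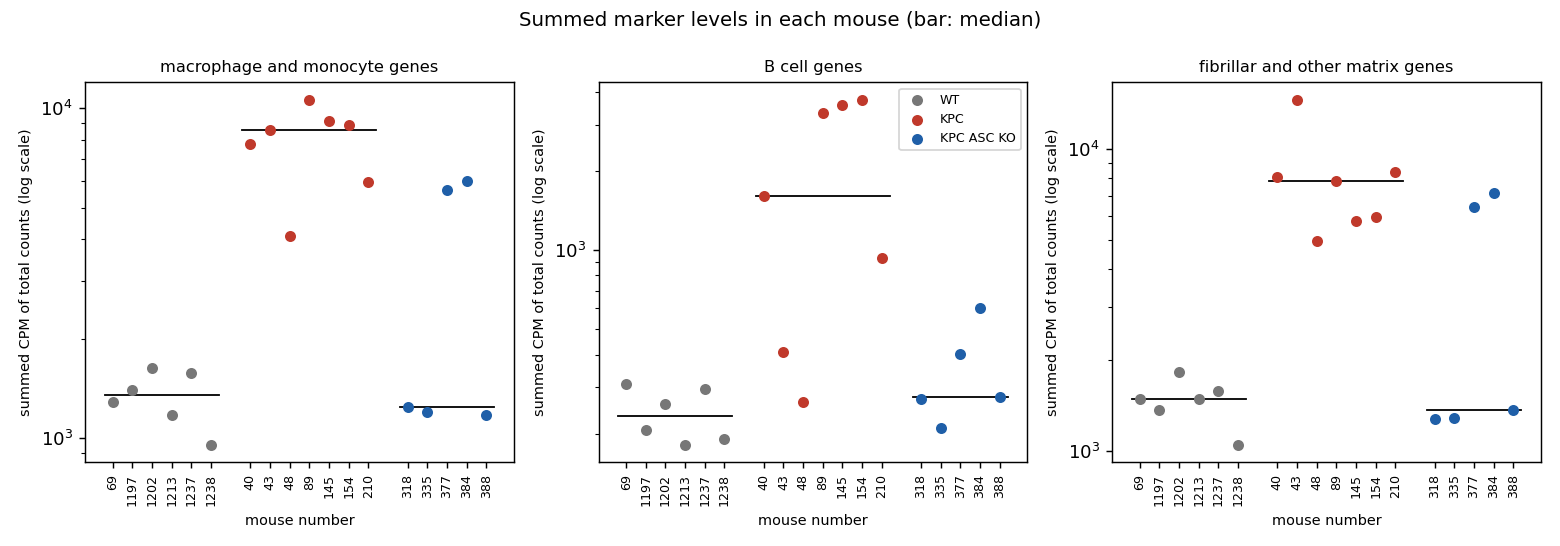
Summed CPM of macrophage and monocyte, B cell, and matrix genes in each mouse on a log axis, without TMM scaling, with a bar at each group's median. KPC ASC KO mice 318, 335 and 388 lie with the WT mice in the macrophage and matrix panels and 377 and 384 with the KPC mice, and in the B cell panel KPC mice 40, 89, 145 and 154 are the highest.

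Among NF-kB subunits and targets 5 of 18 fell and none rose (median -0.89), against 2.69% of all genes lower. Vcam1, the endothelial and stromal adhesion molecule that binds leukocytes, was at 14.4 to 53.4 CPM in KPC with a median of 38.3 and at 8.55, 11.7, 11.1, 11.1 and 8.44 CPM in KPC ASC KO mice 318, 335, 377, 384 and 388 (-1.89, SE 0.38, edgeR adjusted p = 0.00632). The groups did not overlap. Bcl3, a nuclear inhibitor-like cofactor of NF-kB, did not overlap either, at 39.2 to 67.1 CPM and at 8.44 to 33.4 CPM (-1.24, SE 0.30), and the subunit Relb (-1.51, SE 0.43), the survival factor Birc3 (-1.43, SE 0.42) and the macrophage growth factor Csf1 (-1.31, SE 0.40) fell. The inhibitor Nfkbia had -0.91 and the subunit Nfkb1 -0.87, neither past the threshold. Of 19 interferon-stimulated genes 2 fell, among them Trim30a (-1.24, SE 0.40). None fell without any one of KPC mice 89, 145 and 154 or KPC ASC KO mice 318, 335 and 388. The NF-kB list had no call and a median of -0.12 without KPC mice 40, 89, 145 and 154, 1 call without KPC ASC KO mouse 318, 335 or 388, 2 without KPC mouse 89, 145 or 154, and 8 without KPC mouse 48.

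Antigen presentation genes also fell in part, where 2.69% of all genes were lower. Of 14 MHC class I genes 4 fell, namely B2m, the light chain (-0.99, SE 0.27), Psme2, a proteasome activator subunit (-1.03, SE 0.28), Tapbp, the tapasin chaperone (-1.08, SE 0.31), and Tap1, the peptide transporter (-1.91, SE 0.51), which overlaps Psmb9 and shares its counts uncertainly. Psmb10, an immunoproteasome subunit, went the other way (1.34, SE 0.36); it neighbours Ctrl on chromosome 8, whose part in its counts was not tested, and WT pancreas held it at a mean of 462 CPM against 151 CPM in KPC. B2m stood at 316 to 1131 CPM in KPC and at 316, 246, 477, 492 and 325 CPM in the KPC ASC KO mice. H2-Aa was the one of 8 MHC class II genes that fell (-0.82, SE 0.26), with the invariant chain Cd74 at -0.95 (SE 0.30, edgeR adjusted p = 0.0518). No class II gene was called without any one of KPC mice 40, 89, 145 and 154 or KPC ASC KO mice 318, 335 and 388. By comparison 7 of 8 were called without KPC mouse 43 and 4 without KPC mouse 48 or KPC ASC KO mouse 377 or 384. Irf8, a transcription factor of dendritic cells and B cells, fell (-1.79, SE 0.54) as 1 of 5 dendritic cell genes, and Mndal, a PYHIN-family sensor, as 1 of 3 (-1.04, SE 0.33). The class I list had no call, at a median of -0.10, without KPC mice 40, 89, 145 and 154. It also had none without KPC ASC KO mouse 318, 335 or 388, 2 without KPC mouse 89, 145 or 154, 9 lower of 14 without 48 and 10 of 14 without 43.

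The remaining genes that fell were few per group, where 2.69% of all genes were lower. Itm2b, a widely expressed membrane protein, did not overlap at 458 to 613 CPM in KPC and 342, 293, 408, 421 and 283 CPM in KPC ASC KO (-0.65, SE 0.15, edgeR adjusted p = 0.0107), nor did Lrrc8c, an anion channel subunit, at 11.999 to 33.6 and 3.91 to 8.44 CPM (-1.85, SE 0.41). The actin regulators had 3 of 22 lower, with Arpc2 (-0.62, SE 0.18) beside Lcp1, and the inhibitory G protein subunit Gnai2 (-0.76, SE 0.22) was another abundant gene that fell. The actin list had no call without KPC ASC KO mouse 318 or 335, 1 without 388 or without KPC mouse 40, 89, 145 or 154, and 5 to 10 without KPC mouse 43, 48 or 210 or KPC ASC KO mouse 377 or 384. Tgfb1, the cytokine of fibrosis (-1.53, SE 0.43), vimentin (Vim, -0.72, SE 0.22), the calponin Cnn2 (-1.44, SE 0.41) and the lymphatic marker Lyve1 (-1.01, SE 0.32) fell in lists where few other members did.

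Structural stroma and duct genes gave few calls or none with all mice entered. None of 38 matrix genes was called at a median of -0.38, nor any of 12 basement membrane genes (-0.10), in edgeR. Of the 38 matrix genes 35 had a log2 fold change below 0, with decorin (Dcn) at 363 to 694 CPM in KPC and 336, 273, 505, 438 and 279 CPM in KPC ASC KO (-0.55, SE 0.19, edgeR adjusted p = 0.0684) and collagen Col1a1 at -0.19. The duct keratin Krt19 was at 0.24, and Krt20 (0.74, SE 0.48) and Muc1 (0.88, SE 0.38) did not pass. No gene of 9 tested for proliferation (median -0.93), 8 p53 targets (-0.01) or 8 Ras-MAPK outputs (-0.35) was called. These were 9 of 39, 8 of 19 and 8 of 20 genes in the table, and with 9.42% of all genes called, lists this short would show few calls or none. Without KPC ASC KO mouse 377, 3 of 14 proliferation genes were lower, and without 318 or 335 none was. Without mouse 384, 1 of 8 Ras-MAPK outputs was lower. The matrix counts depended on the mice and the scaling. Without KPC ASC KO mice 377 and 384, 16 of 38 matrix genes were lower (median -1.26). Without mice 318, 335 and 388 none of 40 was called (median 0.23). None of 34 was called without KPC mice 40, 89, 145 and 154 (median -0.64). Those mice were chosen partly by matrix levels, so these values describe the remaining mice only. On the total-count scale 29 of 38 were lower (median -1.34, against -1.14 for all genes).

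The partners of ASC were mostly below the filter, which left few genes to set beside the 9.42% of all genes called. Of 25 inflammasome and pyroptosis genes in the table other than Pycard, 5 were tested and none was called: Casp4 (-0.83), Gsdmd, the pore-forming gasdermin (-0.48), Nek7, the NLRP3 licensing kinase (-0.41), Ninj1 (-0.40) and Txnip (-0.16). Gsdmd was at 26.4 to 42.0 CPM in KPC and at 17.1, 7.81, 29.7, 38.9 and 21.1 CPM in the KPC ASC KO mice, with overlap (SE 0.32, edgeR adjusted p = 0.361). Casp1, which ASC recruits, had 97 counts over the 7 KPC libraries and 8 over the 5 KPC ASC KO libraries, or 15.7 and 3.23 CPM of the pooled totals, Il1b 61 and 7 counts, and Nlrp3 7 and 2. In the edgeR fit with no low-count filter all 25 genes were tested and none was called, at a lowest adjusted p of 0.11 and with 7 at an unadjusted p under 0.05. The median there was -0.97, beside -0.41 for all genes in that fit, with Casp1 at -1.19 (adjusted p = 0.364) and Nlrp3 at 0.53 (adjusted p = 0.828). Of the interleukin 1 family, Irak1 alone of 6 was called, and Il18, a substrate of caspase 1, had -0.48 and Myd88 -0.23.

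Genes beside Pycard on chromosome 7 were examined because the targeted allele and its neighbours are inherited together on a mixed background. Of 77 other genes tested within 5 Mb, 8 were called (10.4%, against 9.34% on other chromosomes), 6 higher and 2 lower. The higher ones were Lcmt1, a protein phosphatase methyltransferase (2.57, SE 0.41, no overlap), Zg16, a zymogen granule lectin (2.64, SE 0.65), Prss8, the protease prostasin (1.84, SE 0.33), Nupr1, an acinar stress gene (1.80, SE 0.53), Bckdk, the kinase of branched-chain amino acid breakdown (1.38, SE 0.32), and Cdcp3. The lower ones were the interleukin 4 receptor Il4ra (-1.16, SE 0.34, no overlap) and Fam53b (-0.97, SE 0.27). Within 20 Mb the share called was 10.6%.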

How the data were processed

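Pancreas RNA of 18 mice (6 WT, 7 KPC, 5 KPC ASC KO) was sequenced from libraries primed at the poly(A) tail with a 10 bp molecular identifier, per the labels' protocols. The authors deposited raw molecule counts per gene, not normalized. Per the submitters' processing notes, edgeR 3.36.0, limma 3.50.0 and R 4.1.2 and the builds GRCm38 and mm10 were used, with no role given, and the aligner is not given in the sources used here. Groups came from the genotype in the labels, and no pair of KPC or pair of KPC ASC KO libraries agreed within sampling noise (chi-square per degree of freedom of 2.351 or more).

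Genes were kept by filterByExpr (minimum count 10) and tested with edgeR 4.0.16 in R 4.3.3 (TMM, robust quasi-likelihood, 3 groups in 1 fit of 18 mice, Benjamini-Hochberg over all 6920 genes, threshold 0.05). The script was also run on simulated counts, drawn independently for each gene. Those counts lacked the differences between mice of a group that many genes share here, so that run says nothing about them. SE is the standard error of the log2 fold change. Alternatives used DESeq2 1.42.0 and limma 3.58.1, other filters, scalings, covariates, thinned libraries, the 12 mice alone, and fewer mice. The edgeR p-values use a spread between mice that was estimated over the WT, KPC and KPC ASC KO groups together. They therefore rest in part on the WT mice. In the fit of the 12 KPC and KPC ASC KO mice alone 192 genes passed. The fit of 18 mice called 95 named genes other than Pycard, and 59 of these lost their call in the 12-mouse fit. That fit tested 118 named genes other than Pycard, which include genes not called with 18 mice. Lists are described by counts of calls and medians, with no test of a list.

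Named genes were Pycard and Trp53, the 15 largest changes in each direction among called genes with at least 10 CPM in the higher group, the 5 most abundant called genes per direction, and up to 3 genes per list of smallest p, of which the text gives those it needs. Some genes that the rule names are not reported here. Predicted, Y-linked and antigen receptor genes and Xist were left out. Other list members, the genes near Pycard and Gdf10 were named after their values were seen. The comparison, its 53 gene lists and these rules were chosen with earlier results of these data known. Promoters came from the RefSeq table of GRCm38.p6. Of 25651 gene identifiers 25575 were in GENCODE M21.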

Additional observations from a re-analysis of the deposited data

Results flagged for a closer look

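In 258 groups of values tested (each gene named here, library totals and the acinar enzyme share, in KPC and in KPC ASC KO mice), the highest or lowest mouse stood apart from the rest of its group by Dixon's criterion in 27. For independent, normally distributed values chance gives about 1 in 20 groups. These values were not log-scaled and many genes vary together, so the 27 cannot be set against that rate. KPC mouse 48 was the highest KPC mouse in 18 of these, with the value of the next mouse given after it, in TMM-normalised CPM. These were the enzyme and granule genes Amy2a4 (24186, next 10905), Ctrl (13530.3, next 5770.5), Klk1 (6074, next 2472) and Zg16 (7946, next 3513), the acinar transcription factor Ptf1a (96.0, next 39.3), Tmed11 (24.0, next 3.37), Atp2c2 (28.8, next 12.01), Cdcp3 (24.0, next 4.50), Gal (170.4, next 78.0), Cldn18 (57.6, next 27.0), the amino acid genes Cbs (105.6, next 33.7) and Phgdh (134, next 48.0), and the chaperone and degradation genes Calr (466, next 276), Hspa5 (689, next 329.9) and Sel1l (634, next 299). The others were Casp9 (1356, next 606), Eef1akmt3 (16.8, next 6.74) and Galnt6os (50.4, next 10.51), whose counts may be those of overlapping genes.

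KPC mouse 210 was the highest KPC mouse for Hsbp1l1 (15.01 CPM, next 2.48) and Tdh (7.50, next 2.40), and the lowest for Myd88 (12.01, next 24.0). KPC mouse 40 was the highest for the trypsinogens Prss1 (2168, next 538) and Prss3 (5879, next 1505), near-identical paralogs, and KPC mouse 89 for Lpl (65.9, next 40.5). Among the KPC ASC KO mice, mouse 335 was the highest for Prss3 (6790.3, next 2211) and Sst (152, next 114), and mouse 384 for Trp53 (33.4, next 15.6).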

How the results depend on the processing

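Against 652 calls (466 higher, 186 lower, 71.5% higher), DESeq2 size factors gave 622 (440 and 182) and DESeq2's Wald test 810 (539 and 271). Total-count scaling gave 5193 calls, 142 higher and 5051 lower (2.73% higher). Limma-voom gave 658, 575 higher and 83 lower (87.4% higher), no low-count filter 763, 425 and 338 (55.7%), and a minimum count of 30 gave 573, 317 and 256 (55.3%). The 12 mice alone gave 192 (151 and 41), and libraries thinned to 294077 counts 445 (327 and 118). The acinar covariate left 0 calls in edgeR, 0 higher and 0 lower (223 at an unadjusted p under 0.05), and the B cell covariate 176 (140 and 36). Leaving out 1 mouse gave 157 to 1068 calls, 139 to 675 higher and 18 to 393 lower. Of the settings added after the data were seen, leaving out KPC mice 40, 89, 145 and 154 gave 1 call (0 higher, 1 lower), KPC ASC KO mice 377 and 384 gave 1098 (675 and 423, 61.5% higher), and KPC ASC KO mice 318, 335 and 388 gave 1 (0 and 1).

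Pycard missed the threshold with the acinar covariate (-2.03) and without the 4 KPC mice (-1.34), and ranged from -2.26 to -1.62 without 1 mouse. The difference in total counts ranged from -456624 to -260873 without 1 mouse, or -423160 to -260873 where its exact permutation p passed 0.05. The share called near Pycard was 10.4% within 5 Mb and 10.6% within 20 Mb.

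Named genes whose sign turned, in log2 fold change, were as follows. Total-count scaling gave Calr -0.93, Hspa5 -0.74, Irak1 -0.17, Krt19 -0.80, Krt20 -0.31, Lpl -0.15, Mettl1 -0.28, Muc1 -0.15, Ndufs6 -0.055, Nr5a2 -0.10, Prss3 -0.17, Sec62 -0.083, Selenos -0.048, Uqcr11 -0.18, Uqcrq -0.011 and Xbp1 -0.11. The acinar covariate gave Calr -0.34, Col1a1 0.010, Ctrb1 -0.025, Ctrc -0.34, Hspa5 -0.47, Mettl1 -0.018, Mt1 -0.096, Myd88 0.13, Nr5a2 -0.27, Nupr1 -0.16, Prss2 -0.058, Prss3 -1.26, Psmb10 -0.083, Ptf1a -0.12, Sel1l -0.0025 and Try4 -0.11. That covariate was built from the acinar enzyme genes, so the turns of those genes test nothing. The B cell covariate gave Calr -0.070, Krt19 -0.062 and Prss1 0.26. Calr was -0.049 with no filter, -0.059 with a minimum count of 30 and -0.082 in thinned libraries, and Prss1 was 1.10 with limma-voom. Without the 4 KPC mice Calr was -0.21, Krt19 -0.51, Krt20 -0.0012, Myd88 0.039, Nfkbia 0.042, Prss1 1.07, Psmb9 0.23 and Ptprc 0.079. Without KPC ASC KO mice 377 and 384 Calr was -0.018 and Prss1 0.18. Without mice 318, 335 and 388 Col1a1 was 0.72, Gsdmd 0.038, Lyz2 0.13, Myd88 0.25 and Prss3 -0.033. Without 1 mouse, Prss1 ran from -0.66 to 1.00, Calr from -0.059 to 0.22 and Col1a1 from -0.57 to 0.020. The causes were not tested.

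Depth limits the genes near the filter: Pycard rests on 3 to 12 counts in each KPC ASC KO library. No paired analysis was possible because the groups share no mouse numbers.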
